A study of Rattus norvegicus with 13 samples.

Results

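Zic1, Meox2, Tbx5, Tbx2 and Mab21l1 are 5 developmental genes, described here in cells that were grown from adult Sprague Dawley rats. The 5 were chosen by the pattern of their levels over these same arrays, so their levels and differences are given as a description with no test. They are 5 of the 14506 genes with a named probe set, and each was matched by its symbol to 1 probe set. The cells were skin-derived precursors (SKPs), sphere-forming dermal cells, from dorsal trunk, ventral trunk and facial skin, with 3 isolates of each, and mesenchymal stromal cells (MSCs), with 4 isolates. All 4 groups came from the same strain and had been passaged 2 times, and the labels give no treatment, sex or age beyond adult. For the MSC source tissue and for the media, the sources used here name nothing. The labels call the isolates independent without saying whether each came from its own animal, so the errors below measure the spread between isolates.

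Zic1 and its relatives are zinc finger transcription factors of the dorsal neural tube and dorsal somite. Meox2 is a homeobox factor of somites, limb muscle and blood vessels, while Tbx5 and Tbx2 are T-box factors, the first best known for forelimb and heart and the second as a repressor in limb, heart and other organs. Mab21l1, named after mab-21 of Caenorhabditis elegans, is needed for eye development in the mouse and belongs to a family with a nucleotidyltransferase fold, so it is not an established DNA-binding transcription factor. In embryos such genes mark position along the body, and adult fibroblasts and dermal cells are known to keep part of such regional patterns in culture. The 5 genes were proposed as factors of the trunk, and the values below go against that name for most of them. None of the 5 (0 of 5) had a higher mean in both trunk regions than in facial SKPs with arrays that did not overlap, as 4.3% of all genes had. Zic1 and Tbx5 were higher in 1 trunk region each, as were 21.3% of all genes, and Meox2, Tbx2 and Mab21l1 in neither. They are therefore called by their gene names.

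The sequences just upstream are printed for Meox2, Tbx5 and Mab21l1, the 3 genes with an entry in the promoter table used. Meox2 and Mab21l1 were lowest in dorsal and Tbx5 highest in ventral SKPs. Each run is the 250 bases before the annotated start in RefSeq's GRCr8 assembly of the rat, 5′ to 3′ on the gene's strand. Meox2 lies at chr6:59583775-59584024 on the plus strand, Tbx5 at chr12:42395360-42395609 on the minus strand and Mab21l1 at chr2:142093368-142093617 on the plus strand. Capitals mark matches on either strand to 5 motifs. These were TATAAA (the TATA box), CCAAT (the CCAAT box), GGGCGG (the GC box), TAATTA (a homeobox core) and AGGTGT (a T-box core).
Meox2: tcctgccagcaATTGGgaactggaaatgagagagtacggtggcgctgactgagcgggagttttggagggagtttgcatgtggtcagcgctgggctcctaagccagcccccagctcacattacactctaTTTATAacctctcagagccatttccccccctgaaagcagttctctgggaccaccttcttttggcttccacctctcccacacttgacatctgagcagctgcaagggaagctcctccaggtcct
Tbx5: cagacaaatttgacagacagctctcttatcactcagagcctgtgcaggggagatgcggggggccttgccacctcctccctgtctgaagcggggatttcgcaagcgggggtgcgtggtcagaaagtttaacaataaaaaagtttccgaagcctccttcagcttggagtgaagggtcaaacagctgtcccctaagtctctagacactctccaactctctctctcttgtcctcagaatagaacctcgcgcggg
Mab21l1: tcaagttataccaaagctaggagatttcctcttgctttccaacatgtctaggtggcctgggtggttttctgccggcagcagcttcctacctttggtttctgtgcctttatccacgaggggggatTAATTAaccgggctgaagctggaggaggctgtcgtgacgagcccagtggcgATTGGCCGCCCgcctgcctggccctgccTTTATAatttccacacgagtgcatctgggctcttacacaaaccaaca
The Meox2 window held TATAAA on the opposite strand (TTTATA) and CCAAT on the opposite strand (ATTGG), starting 122 and 239 bases upstream. The Mab21l1 window held TTTATA starting 47 bases upstream, CCGCCC, the opposite strand of GGGCGG, at 70, ATTGG at 75 and TAATTA at 126, where ATTGG and CCGCCC adjoin without overlap. The Tbx5 window held none of the 5, and AGGTGT was in none of the 3 windows. Among all 33469 windows of the same length, 12.9% held TATAAA, 34.0% CCAAT, 30.5% GGGCGG, 4.86% TAATTA and 11.6% AGGTGT, with TAATTA the least frequent of the 5. GC content was 54.8% for Meox2, 53.2% for Tbx5 and 53.6% for Mab21l1, within the quartiles of all windows (44.0% to 60.0%). A match is a run of letters and not a measured binding site.

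Values are log2 expression values of the deposited table, on which a difference of 1 is a doubling. A level was counted as background where the group mean did not exceed the 95th percentile of the group means of 1105 olfactory receptor genes, which these cells are not known to use. That level was 3.94 for the ventral arrays, 4.03 for the dorsal and for the facial arrays, and 4.04 for the MSC arrays. Where a gene lay at this level in a group, the size of its difference from another group is not resolved by the array. Levels of different genes are not compared, since each probe set has its own response. In RNA of whole cultures, fewer cells that express a gene and less of its RNA per cell cannot be told apart.

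Some facts of the series bear on all values. Between replicate arrays, dorsal SKP array 3 differed by over 2-fold from arrays 1 and 2 of its group in 9.55% and 7.67% of genes, against 2.07% between those 2. Facial array 3 differed from facial arrays 1 and 2 in 4.23% and 4.05%, against 2.28% between them, and MSC arrays 1 and 2 stood apart from 3 and 4 in 4.61% to 6.58%. Of 10 SKP markers, 5 were higher and 1 was lower in SKPs than in MSCs by limma, where 25.3% of all genes were called (13.1% higher and 12.2% lower). The mean over the 10 markers was 9.01 to 9.38 on the facial and 9.02 to 9.19 on the ventral arrays. It was 8.90 and 8.93 on dorsal arrays 1 and 2. On dorsal array 3 it was 7.47, below all 4 MSC arrays (7.94 to 8.16). Sox2 and Twist1 had means of 6.77 to 7.08 and 9.16 to 9.39 in the SKP regions against 5.27 and 7.55 in MSCs. Snai2 went the other way, at 8.93 in MSCs and no higher than 8.10 in any SKP region. Nes was at 7.54 in ventral SKPs, 5.55 in MSCs, 4.79 in facial SKPs and 4.31 in dorsal SKPs, and was called only as higher in ventral SKPs than in each other group, where 3 of 22 alternatives lost the calls against MSCs and facial SKPs. All 9 measured MSC markers were above background in all 4 groups.

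**Figure D1:**
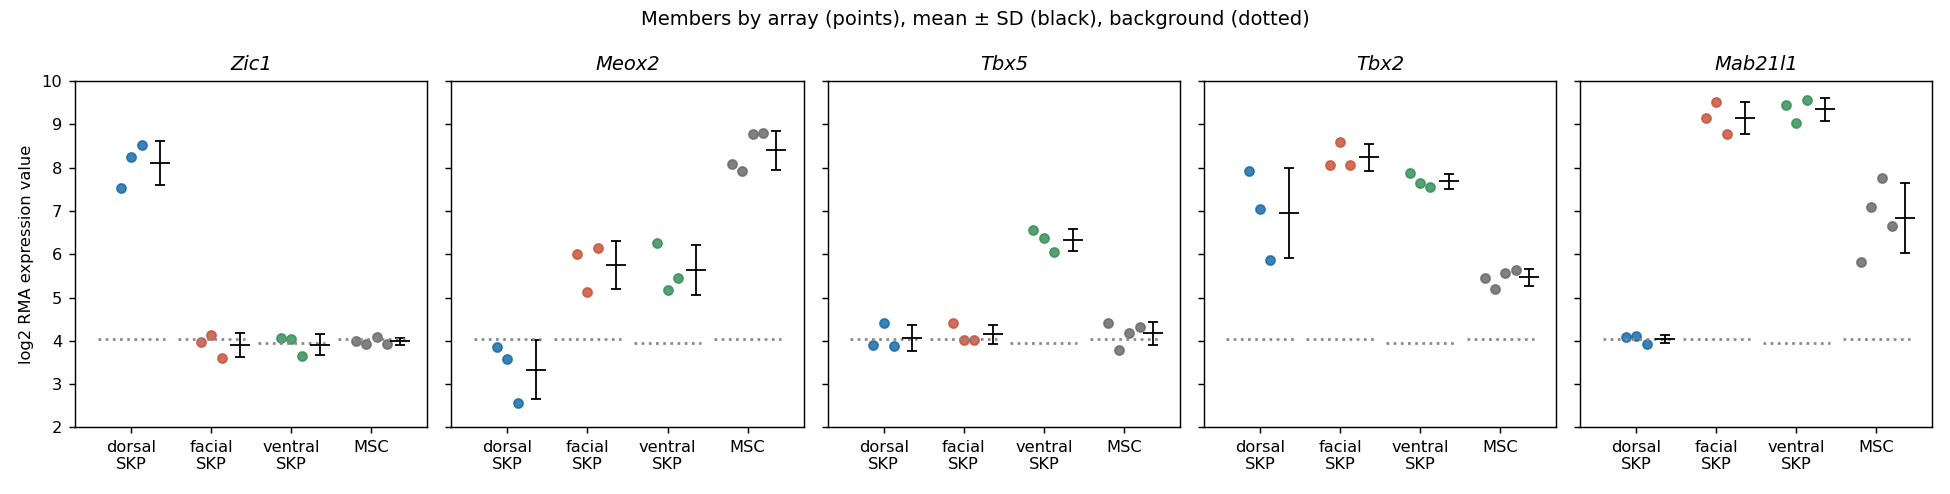
Log2 expression value (vertical axis) of the 5 genes on each of the 13 arrays by group, with black bars for the mean ± SD of 3 or 4 arrays and dotted lines for background (95th percentile of olfactory receptor genes, 3.94 to 4.04). The Zic1 mean stands above background in dorsal SKPs alone, Tbx5 is highest in ventral SKPs, Mab21l1 and Meox2 are lowest in dorsal SKPs, and Tbx2 is lowest in MSCs.

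Zic1 was high in dorsal SKPs only. Its values were 7.53, 8.25 and 8.53 on the dorsal arrays, 3.97, 4.14 and 3.60 on the facial arrays, and 4.06, 4.04 and 3.64 on the ventral arrays. On the MSC arrays it was at 3.99, 3.94, 4.10 and 3.93. All 3 dorsal arrays lay above all 10 others, while the other 3 groups overlapped each other. The dorsal mean was 8.11 ± 0.52 (SD, n = 3), against 3.99 ± 0.08 (n = 4) in MSCs, 3.91 ± 0.23 (n = 3) in ventral SKPs and 3.90 ± 0.28 (n = 3) in facial SKPs. The last 3 means were all at background, although 1 of 4 MSC, 2 of 3 ventral and 1 of 3 facial arrays exceeded that level. Dorsal SKPs exceeded MSCs by 4.12 (SE 0.21), facial SKPs by 4.20 (SE 0.23) and ventral SKPs by 4.19 (SE 0.23) in log2. The difference between facial and ventral SKPs was -0.01, smaller than the spread within either group. A mean over all SKPs hides this pattern, since the difference of 1.32 (SE 0.17) between SKPs and MSCs comes from 3 of the 9 SKP arrays.

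Meox2 was lowest where Zic1 was highest, at background in dorsal SKPs, and had its highest level in MSCs. The MSC arrays gave 8.09, 7.92, 8.78 and 8.79. The dorsal arrays gave 3.85, 3.59 and 2.57, all below background. The facial arrays, at 6.01, 5.12 and 6.14, and the ventral arrays, at 6.27, 5.18 and 5.45, lay between those groups and overlapped each other. No SKP array reached any MSC array. Means were 8.40 ± 0.46 (SD, n = 4) in MSCs, 5.76 ± 0.55 (n = 3) in facial, 5.63 ± 0.57 (n = 3) in ventral and 3.34 ± 0.67 (n = 3) in dorsal SKPs. Facial SKPs were lower than MSCs by a log2 difference of -2.64 (SE 0.38), ventral SKPs by -2.76 (SE 0.38) and dorsal SKPs by -5.06 (SE 0.38), where the last is measured against background. Among SKPs, facial exceeded dorsal cells by 2.42 (SE 0.41), and facial and ventral cells differed by 0.12 (SE 0.41), within the spread of either group. Dorsal array 3, which stood apart over all genes, had the lowest value, and without it and facial array 3 the difference between facial and dorsal SKPs was 1.85.

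Most genes of a smooth muscle and pericyte list were, like Meox2, higher in MSCs than in SKPs. The mean over the 9 genes of the list was 8.36, 8.42, 9.39 and 9.54 on the MSC arrays. On all 9 SKP arrays it was 5.44 to 5.68. MSC arrays 3 and 4 were highest for this list and for Meox2 alike. Of the 9 genes, 7 were lower in SKPs than in MSCs by limma, where 12.2% of all genes were called lower. Rgs5 and Cspg4 did not follow. Rgs5 was at 5.77 in ventral SKPs, 4.61 in MSCs, 4.32 in dorsal and 4.22 in facial SKPs. Cspg4 was at 8.90 to 9.20 in all 4 groups. The range of 5.44 to 5.68 covers all 3 SKP regions, among which Meox2 differed, and the list's part in the Meox2 result was not tested.

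Tbx5 was highest in ventral SKPs. The ventral arrays gave 6.57, 6.36 and 6.05, and the 10 others lay between 3.78 and 4.41. The dorsal values were 3.90, 4.40 and 3.89, the facial values 4.41, 4.01 and 4.03, and the MSC values 4.40, 3.78, 4.19 and 4.31. These 3 groups overlapped, so they have no order among them. The ventral mean was 6.33 ± 0.26 (SD, n = 3), against 4.06 ± 0.29 (n = 3) in dorsal SKPs, 4.15 ± 0.23 (n = 3) in facial SKPs and 4.17 ± 0.27 (n = 4) in MSCs. The last 3 means were just above the background level, and only 1 of 3 dorsal and 1 of 3 facial arrays exceeded it. Ventral SKPs exceeded dorsal SKPs by a log2 difference of 2.27 (SE 0.20), facial SKPs by 2.18 (SE 0.20) and MSCs by 2.16 (SE 0.19).

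Of 7 endothelial markers measured, 5 were higher and 1 lower in ventral SKPs than in MSCs by limma, where 24.4% of all genes were called. Against ventral SKPs, 4 of the 7 were lower in dorsal and 4 in facial SKPs (6.11% and 6.6% of all genes called). The mean over the 7 was 5.64, 5.09 and 5.63 on the ventral arrays, 3.77 to 4.08 on the dorsal, 4.05 to 4.42 on the facial and 4.03 to 4.42 on the MSC arrays. Pecam1, an adhesion molecule of endothelium, was higher in ventral SKPs than in MSCs by 2.63 (limma adjusted p = 0.000176), and the VEGF receptor Kdr by 1.59 (adjusted p = 6.09e-05). Egfl7, a secreted endothelial factor, went the other way, at 6.19 in ventral SKPs and 6.90 in MSCs (adjusted p = 0.0477, a call that 10 of 22 alternatives lost, up to 0.269). Pecam1, Kdr, Emcn, Cdh5 and Tek were at background in dorsal and facial SKPs and in MSCs. On the ventral arrays Tbx5 was 6.57, 6.36 and 6.05 while the list mean was lowest on array 2, so the 2 did not rank the 3 arrays alike, and their link was not tested.

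**Figure D2:**
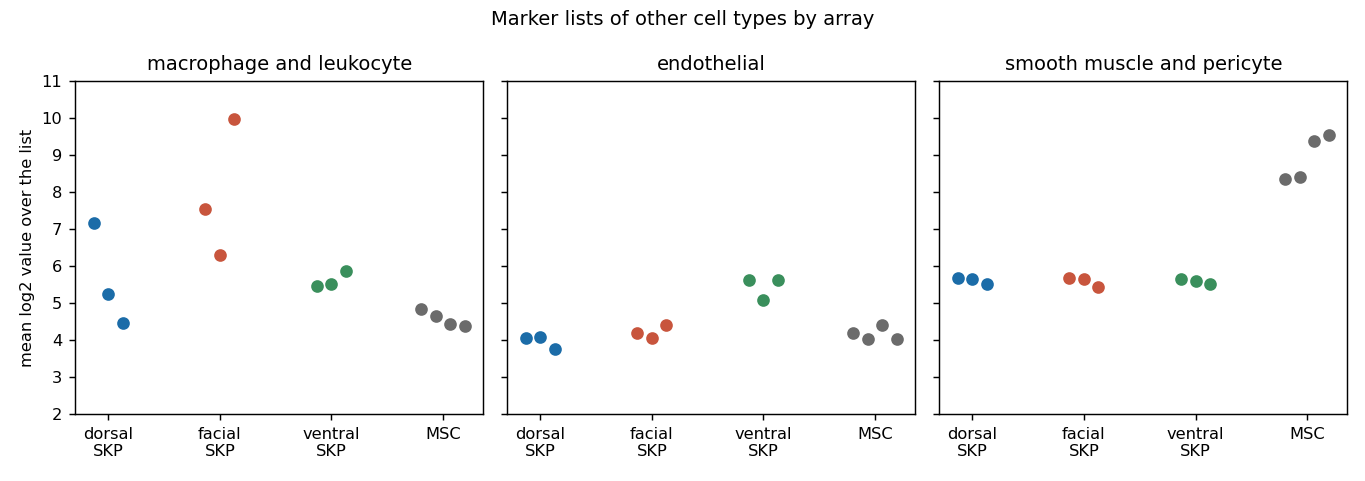
Mean log2 expression value (vertical axis) over the macrophage and leukocyte (15 genes), endothelial (7 genes) and smooth muscle and pericyte (9 genes) marker lists, 1 point an array, by group. The endothelial list is highest on the 3 ventral arrays (5.09 to 5.64), the smooth muscle list on the 4 MSC arrays (8.36 to 9.54), and the macrophage list ranges from 4.48 to 9.97 over the dorsal and facial arrays.

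Tbx2 was above background in all 4 groups and was higher in SKPs of each region than in MSCs. The facial arrays gave 8.06, 8.60 and 8.05, the ventral arrays 7.88, 7.64 and 7.55, the dorsal arrays 7.93, 7.04 and 5.86, and the MSC arrays 5.45, 5.21, 5.57 and 5.63. All 9 SKP arrays lay above all 4 MSC arrays, with a gap of 0.23 between the lowest SKP array, dorsal array 3, and the highest MSC array. Means were 8.24 ± 0.31 (SD, n = 3) in facial, 7.69 ± 0.17 (n = 3) in ventral and 6.94 ± 1.04 (n = 3) in dorsal SKPs, against 5.46 ± 0.19 (n = 4) in MSCs. SKPs together exceeded MSCs by 2.16 (SE 0.28), and facial SKPs by 2.77 (SE 0.36). Among the regions the order was facial, ventral, dorsal. Facial and ventral arrays did not overlap, with a gap of 0.17 and a difference of 0.55 (SE 0.39), and ventral and dorsal arrays overlapped. That SE comes from a spread shared by all 4 groups, which includes the wider dorsal SD of 1.04. The lower dorsal mean rested in part on dorsal array 3. Without it the difference between facial and dorsal SKPs fell from 1.30 (SE 0.39) to 0.75 (SE 0.25). Dorsal arrays 1 and 2, at 7.93 and 7.04, still lay below all facial arrays. The difference between dorsal and ventral SKPs went from -0.75 (SE 0.39) to -0.20 (SE 0.25). Macrophage and leukocyte genes varied over the same dorsal arrays, in the order of Tbx2. Their list means were 7.16, 5.25 and 4.48 on arrays 1, 2 and 3, against 4.38 to 4.84 in MSCs. That order was not particular to this list. The MSC marker list had it too, at 9.39, 9.32 and 8.09 on dorsal arrays 1, 2 and 3. The SKP marker list, at 8.90, 8.93 and 7.47, was also lowest on array 3. For the macrophage and leukocyte list, the facial arrays, where Tbx2 was highest, gave 7.54, 6.30 and 9.97. Of the 15 genes, 12 were higher in facial SKPs than in MSCs by limma (19.0% of all genes called), 2 in ventral and none in dorsal SKPs. The 12 became 7 without facial array 3 or without MSC array 4. Within the facial arrays the order was not shared, since Tbx2 was highest on array 2 and the list on array 3. The ventral arrays, at 5.48 to 5.87 for that list, had Tbx2 levels close to those of dorsal array 1, and the part of these cells in the Tbx2 values was not tested.

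Mab21l1 was just above the background level in dorsal SKPs, on 2 of 3 arrays, and high in facial and ventral SKPs, with MSCs in between. The facial arrays gave 9.15, 9.51 and 8.78, the ventral arrays 9.44, 9.04 and 9.55, the MSC arrays 5.82, 7.08, 7.76 and 6.65, and the dorsal arrays 4.09, 4.10 and 3.93. Facial and ventral arrays overlapped, and MSCs and dorsal SKPs were each apart from all others. Means were 9.15 ± 0.37 (SD, n = 3) in facial, 9.34 ± 0.27 (n = 3) in ventral and 4.04 ± 0.10 (n = 3) in dorsal SKPs and 6.83 ± 0.81 (n = 4) in MSCs. Facial exceeded dorsal SKPs by 5.11 (SE 0.38) and ventral exceeded dorsal SKPs by 5.30 (SE 0.38). Facial and ventral SKPs differed by -0.20 (SE 0.38), within the spread of either group. Relative to MSCs the regions went opposite ways, facial SKPs by 2.32 (SE 0.35), ventral SKPs by 2.51 (SE 0.35) and dorsal SKPs by -2.79 (SE 0.35).

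**Figure D3:**
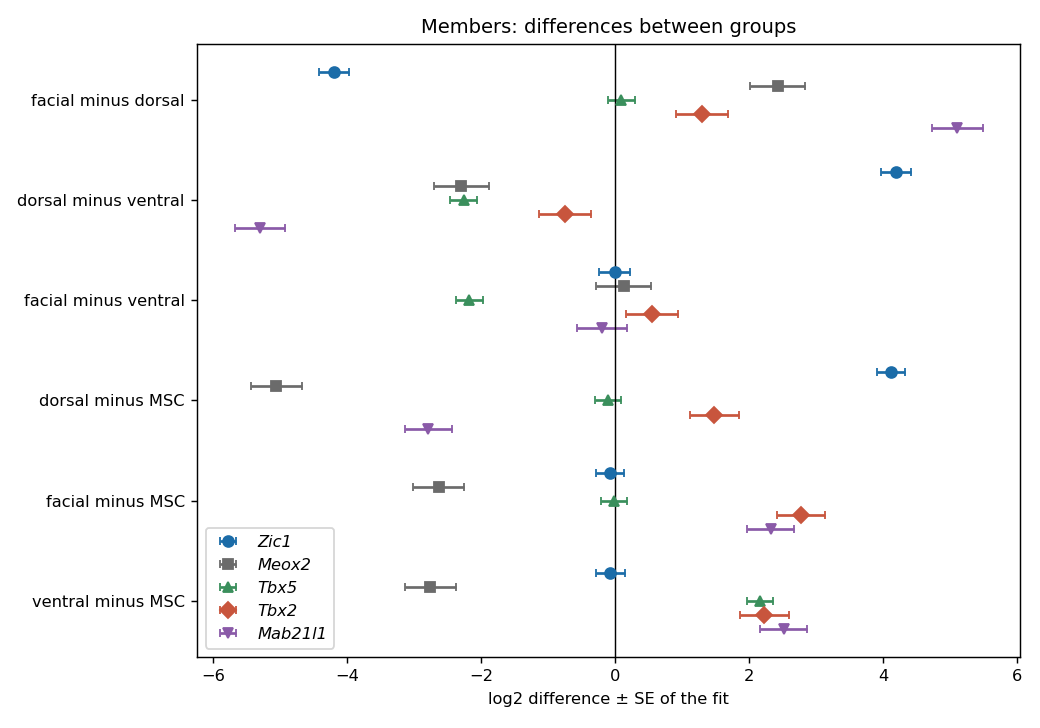
Fitted log2 differences (horizontal axis) of the 5 genes between pairs of groups, with bars for the standard error of the fit over 13 arrays. Zic1 and Mab21l1 lie farthest apart where dorsal SKPs are compared with another region (facial minus dorsal -4.20 and 5.11). For dorsal minus MSC it is Zic1 and Meox2 (4.12 and -5.06). Tbx5 alone lies beyond 2 between facial and ventral SKPs.

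The 5 genes were also counted over each comparison, beside the share of all genes. Between facial and dorsal SKPs, 4 of the 5 differed by at least 1 in log2 with no overlap of arrays, where 2.41% of all genes did. Between dorsal and ventral SKPs it was also 4 of 5, against 3.24% of all genes, and between facial and ventral SKPs 1 of 5 (Tbx5), against 4.4%. Against MSCs, 4 of 5 did so in dorsal (7.6% of all genes), 3 of 5 in facial (9.84%) and 4 of 5 in ventral SKPs (10.1%). Over SKPs as a whole the count was 2 of 5, Tbx2 and Meox2 in opposite directions, against 6.23%. Between facial SKPs and the mean of both trunk regions it was 0 of 5, against 1.43%. The genes were chosen on these values, so the counts describe the choice and nothing is read from them. Across the 13 arrays Zic1 ran opposite to Mab21l1 (Pearson r = -0.844) and to Meox2 (r = -0.754), the strongest of the 10 pairs, and Tbx5 and Mab21l1 had r = 0.529. The arrays share their groups, so these coefficients restate the group levels.

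The relatives of the 5 genes and their neighbours on the chromosome were not used to choose them, although they were named with earlier results in view, and were tested with limma over all 14506 genes at an adjusted p under 0.05. Of the Zic family 4 of 5 genes were measured, of the Meox pair both, of the T-box family 12 of 17 and of the Mab21 family 4 of 7. The share of all genes called was 1.25% between facial and dorsal SKPs, 6.6% between facial and ventral, 6.11% between dorsal and ventral, 25.3% between all SKPs and MSCs, 16.5% for dorsal, 19.0% for facial and 24.4% for ventral SKPs against MSCs.

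Zic4, which lies beside Zic1, was above background in dorsal SKPs alone, at 4.11 ± 0.34 (SD, n = 3) against 3.65 ± 0.06 in MSCs, 3.53 ± 0.04 in ventral SKPs and 3.31 ± 0.09 in facial SKPs. It was lower in facial than in dorsal SKPs by a log2 difference of -0.79 (limma adjusted p = 0.0197) and higher in dorsal SKPs than in ventral SKPs by 0.58 (adjusted p = 0.0352) and than in MSCs by 0.46 (adjusted p = 0.0345). These calls were lost in 5, 11 and 13 of 22 alternatives, with adjusted p up to 0.149, 0.119 and 0.13. The order of Zic4 over the groups was thus that of Zic1 at its top, at a level just over background. Zic2 and Zic5 had no call in any comparison, and Zic2 was at background in all 4 groups. On the other side of Zic1, Tbc1d2b, a regulator of Rab proteins, was higher in SKPs than in MSCs by 0.98 (adjusted p = 0.000342), without the dorsal pattern.

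Mab21l2, the closest relative of Mab21l1, divided the regions in another way. Its values were 7.20, 8.12 and 7.65 on the facial arrays, 4.50, 4.59 and 4.26 on the dorsal arrays, 4.68, 4.36 and 4.53 on the ventral arrays and 7.09, 7.36, 7.76 and 7.63 on the MSC arrays. Facial SKPs and MSCs were high and both trunk regions low, with no overlap between the high and the low groups. Facial exceeded dorsal SKPs by 3.21 (limma adjusted p = 1.59e-05) and ventral SKPs by 3.14 (adjusted p = 1.55e-05). Dorsal SKPs differed from MSCs by -3.01 (adjusted p = 3.63e-06) and ventral SKPs by -2.94 (adjusted p = 2.89e-06), and none of these calls was lost under any of the 22 alternatives. Ventral SKPs thus had Mab21l1 near its facial level and Mab21l2 near its dorsal level. Mab21l3 had no call, and Mb21d2 was called only for dorsal SKPs against MSCs, at -0.37 (adjusted p = 0.0312), a call lost in 8 of 22 alternatives with adjusted p up to 0.111.

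Of the 10 other T-box genes measured, 2 were higher in facial than in dorsal SKPs, none differed between facial and ventral or between dorsal and ventral SKPs, and 1 was higher and 2 lower in SKPs than in MSCs. Leaving out 1 array at a time, the count between facial and dorsal SKPs ranged from 0 to 2. Tbx3, next to Tbx5 and a repressor closely related to Tbx2, was highest in facial and next in ventral SKPs, as Tbx2 was, but unlike Tbx2 had a lower mean in dorsal SKPs than in MSCs, at 8.46 ± 0.17 in facial, 8.11 ± 0.13 in ventral and 6.97 ± 0.79 in dorsal SKPs and 7.11 ± 0.29 in MSCs. Its difference of 1.36 between facial SKPs and MSCs (limma adjusted p = 0.00694) kept its call in all 22 alternatives, with adjusted p up to 0.0352. Its call between facial and dorsal SKPs, 1.50 (adjusted p = 0.0426), was lost in 15 of 22, with adjusted p up to 0.249. Tbx4, a hindlimb and lung factor next to Tbx2, had its highest level in MSCs, at 5.49 ± 0.22, against 4.67 ± 0.20 in facial, 4.66 ± 0.08 in dorsal and 4.29 ± 0.04 in ventral SKPs. The difference between SKPs and MSCs was -0.95 (adjusted p = 4.07e-05), opposite in sign to that of Tbx2. On the other side of Tbx2, Bcas3 was higher in SKPs than in MSCs by 0.76 (adjusted p = 5.97e-05).

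Tbx15, a T-box factor of dorsal skin patterning and skeleton in the mouse, was at 8.69 ± 0.25 in MSCs, 8.65 ± 0.24 in facial, 8.04 ± 0.08 in ventral and 7.78 ± 0.23 in dorsal SKPs. Dorsal SKPs differed from MSCs by -0.91 (limma adjusted p = 0.00233), and facial exceeded dorsal SKPs by 0.87 (adjusted p = 0.0322), a call that 10 of 22 alternatives lost. Tbx18 and 6 more T-box genes, Tbx6, Tbx19, Tbx20, Tbx21, Tbx22 and Tbxt, had no call in any of the 8 comparisons. Meox1, the only relative of Meox2, had means of 4.60 to 4.80 and no call. Agmo, an ether lipid enzyme that follows Meox2 on the chromosome, shared its high side, at 4.93 in MSCs and at background in all 3 SKP regions, with a difference of -1.51 (adjusted p = 0.00031).

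**Figure D4:**
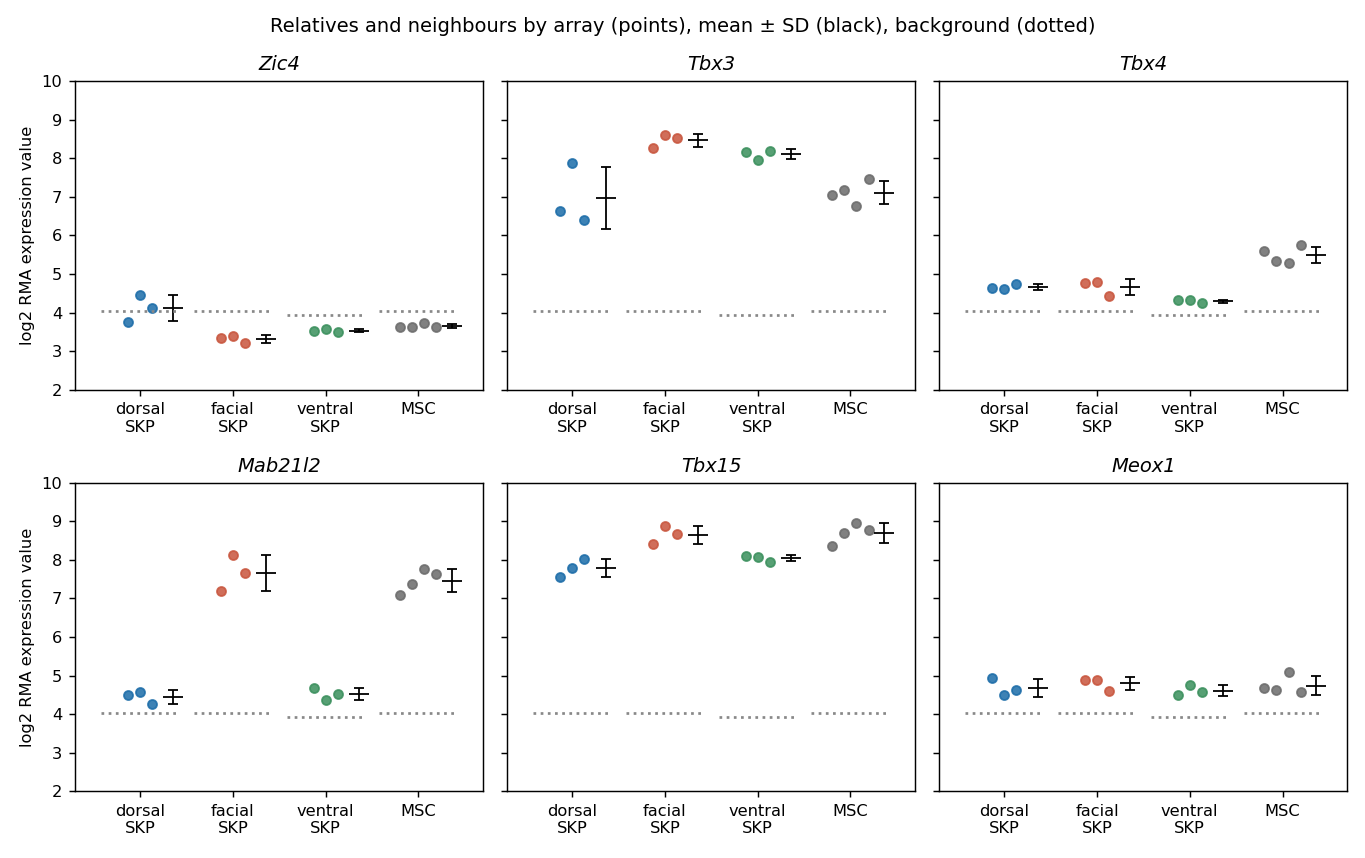
Log2 expression value (vertical axis) of 6 relatives of the 5 genes on each of the 13 arrays by group, with black bars for the mean ± SD and dotted lines for background. Mab21l2 is high in facial SKPs and MSCs (7.66 and 7.46) and low in both trunk regions (4.45 and 4.52), Zic4 lies just over background in dorsal SKPs, and Meox1 is at 4.60 to 4.80 in all groups.

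Genes of the embryonic compartments in which the 5 act were counted without the 5. Of 18 measured factors of somite and dorsal dermis, 2 were higher and 1 lower in facial than in dorsal SKPs, and 2 were higher and none lower in dorsal than in ventral SKPs, with median differences of -0.13 and 0.20 against -0.04 and 0.05 over all genes. The first count ranged from 1 to 3 genes when 1 array was left out, with 1 left without facial array 3. The 2 genes of the second, Scx and Zic4, lost their calls in 5 and 11 of 22 alternatives, and none was left without dorsal array 2, ventral array 1 or ventral array 2. Pax3, a paired-box factor of neural crest and somite, was at 8.68 in facial SKPs and at 4.02 to 4.34 in the other 3 groups. It exceeded its dorsal level by 4.45 (limma adjusted p = 1.09e-05) and its ventral level by 4.66 (adjusted p = 5.52e-06), so this factor marked facial and not dorsal cells. Twist2, a dermal factor, was higher in SKPs than in MSCs by 3.03 (adjusted p = 7.3e-06), and Scx, a tendon factor, differed by -1.45 (adjusted p = 2.52e-06).

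Of 20 measured factors of lateral plate and limb, none was called between dorsal and ventral SKPs, where Tbx5 differed by -2.27. Against MSCs 1 was higher and 6 lower in SKPs, with a median difference of -0.28 against -0.02 over all genes. The 7 called ranged from 3 to 7 when 1 array was left out, with 3 without MSC array 3 and 4 without facial array 2 or 3 or ventral array 1 or 3. Osr1, a factor of lateral plate and limb connective tissue, differed by -0.82 (limma adjusted p = 0.000189). Msx1, a homeobox factor of limb and face, exceeded its dorsal level in facial SKPs by 2.64 (adjusted p = 0.00049) and its ventral level by 1.90 (adjusted p = 0.00219). Of 12 craniofacial factors measured, 3 were higher and none lower in facial than in dorsal SKPs, Pax3, Alx1 by 2.35 (adjusted p = 0.00154) and Lhx6 by 1.53 (adjusted p = 0.00149), and none differed between the trunk regions. Alx4, counted among them, was lower in facial than in ventral SKPs by a log2 difference of -1.66 (adjusted p = 0.00259).

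Genes known as targets of Tbx2 or Tbx5 in the heart and limb showed no common pattern. Of 11 measured, 2 were higher and 2 lower in ventral SKPs than in MSCs, 2 were lower and none higher in facial than in ventral SKPs, and none was called between dorsal and ventral SKPs. The 4 called in ventral SKPs against MSCs ranged from 2 to 4 when 1 array was left out. Nppb, a natriuretic peptide gene that Tbx5 activates in heart, was at 7.80 ± 0.59 in ventral, 6.81 ± 1.06 in dorsal and 5.30 ± 0.44 in facial SKPs and 4.92 ± 0.29 in MSCs. Facial and ventral SKPs differed by -2.50 (limma adjusted p = 0.00851). Fgf10, a limb growth factor gene that Tbx5 activates in the forelimb, was lowest in facial SKPs at 8.15 ± 0.43, against 10.15 ± 0.35 in dorsal SKPs, 9.78 ± 0.15 in ventral SKPs and 9.83 ± 0.27 in MSCs. Its high level in dorsal SKPs and MSCs occurred with Tbx5 close to background there. Gja5, a connexin gene of heart and artery, was lower in SKPs than in MSCs by a log2 difference of -1.65 (adjusted p = 7.71e-06), and its levels of 4.60 to 4.84 in the 3 SKP regions did not follow Tbx5. Of 9 genes of the Hedgehog pathway, with which Zic proteins interact, none was called between facial and dorsal SKPs or between dorsal SKPs and MSCs. Between dorsal and ventral SKPs 2 were lower in dorsal cells (6.11% of all genes called), Gli2 and Sufu. These calls were lost in 16 and 7 of 22 alternatives. Between facial and ventral SKPs 2 were lower in facial cells, Gli1 and Sufu, lost in 6 and 14 of 22. In ventral SKPs, where Zic1 was at background, 3 were higher than in MSCs (24.4% of all genes called). These were Gli2, Sufu and Gli1, the last by 0.83 (limma adjusted p = 0.0066).

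Retinoic acid and BMP signals act on several of these genes in embryos. Their pathway genes, like all genes, were called more often between SKPs and MSCs (25.3% of all genes) than between regions (1.25% to 6.6%). Of 16 retinoid genes measured, 7 were higher and none lower in SKPs than in MSCs, among them the retinoic acid hydroxylase Cyp26b1 by 4.80 (limma adjusted p = 6.25e-05) and the binding protein Crabp1 by 4.87 (adjusted p = 0.000236). Between regions, Aldh1a2, a retinoic acid synthesis enzyme, was at 5.83 in facial SKPs and at background in the other 3 groups, and exceeded its dorsal level by 2.04 (adjusted p = 0.00964). It was 1 of 3 retinoid genes higher in facial than in ventral SKPs, with the reductase gene Dhrs3 by 2.12 (adjusted p = 0.00253) and the receptor gene Rarg by 0.59 (adjusted p = 0.0107). Between dorsal and ventral SKPs 1 was higher and 1 lower, and none was left without ventral array 1 or 3. Of 22 BMP pathway genes, 4 were higher and 8 lower in SKPs than in MSCs. Bmp7 was higher by 5.13 (limma adjusted p = 1.37e-07) and Bmp2 by 3.17 (adjusted p = 0.000243). Among the 8 lower, Bmp4 had means of 4.00 to 4.17 in the SKP regions and 5.68 in MSCs. Bmpr1b, also lower, had means of 4.68 to 5.10 in the SKP regions and 6.43 in MSCs. Between facial and dorsal SKPs, Bmp7 was the only one called, higher in facial cells by 1.90 (adjusted p = 0.0237), a call lost in 3 of 22 alternatives with adjusted p up to 0.073. None of the 22 was called between facial and ventral SKPs, and 1 between dorsal and ventral SKPs.

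The genes whose values ran most like each of the 5 were found by Pearson's r over the 13 arrays among 2455 genes whose group means ranged over at least 1. The coefficients are a description, since the arrays share their groups. For Zic1 the most alike was Cdh7, a cadherin gene (r = 0.964), with a mean of 5.62 in dorsal SKPs and background in the other groups, followed by Mst1 (0.925), Slc16a13 (0.917), Ccdc134 (0.909) and Tacr1 (0.903). Frmd6 (-0.924), Cmklr1 (-0.918) and Nr2f2 (-0.883) ran most opposite to Zic1. For Meox2 they were Arhgef25 (0.974), Rgs16 (0.961), Slc2a3 (0.958), Col11a1 (0.954) and Dzip1 (0.953), and opposite were Wnt16 (-0.957), Irx1 (-0.957) and Fbxo32 (-0.955). Wnt16, a Wnt ligand gene, had means of 4.73 in MSCs, 6.93 in facial, 6.97 in ventral and 8.39 in dorsal SKPs, the order of Meox2 turned round. For Tbx5 they were Col17a1 (0.959), Frzb (0.957), Ccr2 (0.951), Crispld1 (0.947) and Emilin3 (0.946), and opposite were LOC366310 (-0.943), Tmem109 (-0.929) and Dusp1 (-0.891). Frzb, a secreted Wnt antagonist, was at 10.08 in ventral SKPs and 4.31 to 5.16 elsewhere, and Ccr2, a chemokine receptor gene, at 6.67 in ventral SKPs and at background elsewhere.

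For Tbx2 the most alike were Sparcl1 (0.981), Mamdc2 (0.98), Tacr3 (0.979), Egflam (0.97) and Ap1s2 (0.965), and opposite were Pck2 (-0.977) and the amino acid transporters Slc7a1 (-0.962) and Slc7a5 (-0.96). Sparcl1, a matrix glycoprotein gene, had means of 10.77 in facial, 9.61 in ventral and 7.86 in dorsal SKPs and 4.92 in MSCs. For all 8 genes dorsal array 3 was the dorsal array nearest to the MSC mean. For Mab21l1 they were Col14a1 (0.914), Gpr63 (0.909), Nrp1 (0.902), Adgrl3 (0.888) and Gpm6b (0.873), and opposite were Avpr1a (-0.869), Cgref1 (-0.84) and Nrbp2 (-0.802). Col14a1, a fibril-associated collagen gene, was at 11.34 in ventral, 10.56 in facial and 7.93 in dorsal SKPs and 9.43 in MSCs, the order of Mab21l1. The genes named depend on the measure, and by Spearman's rho none of the 5 highest remained for Zic1, Tbx5 or Tbx2.

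**Figure D5:**
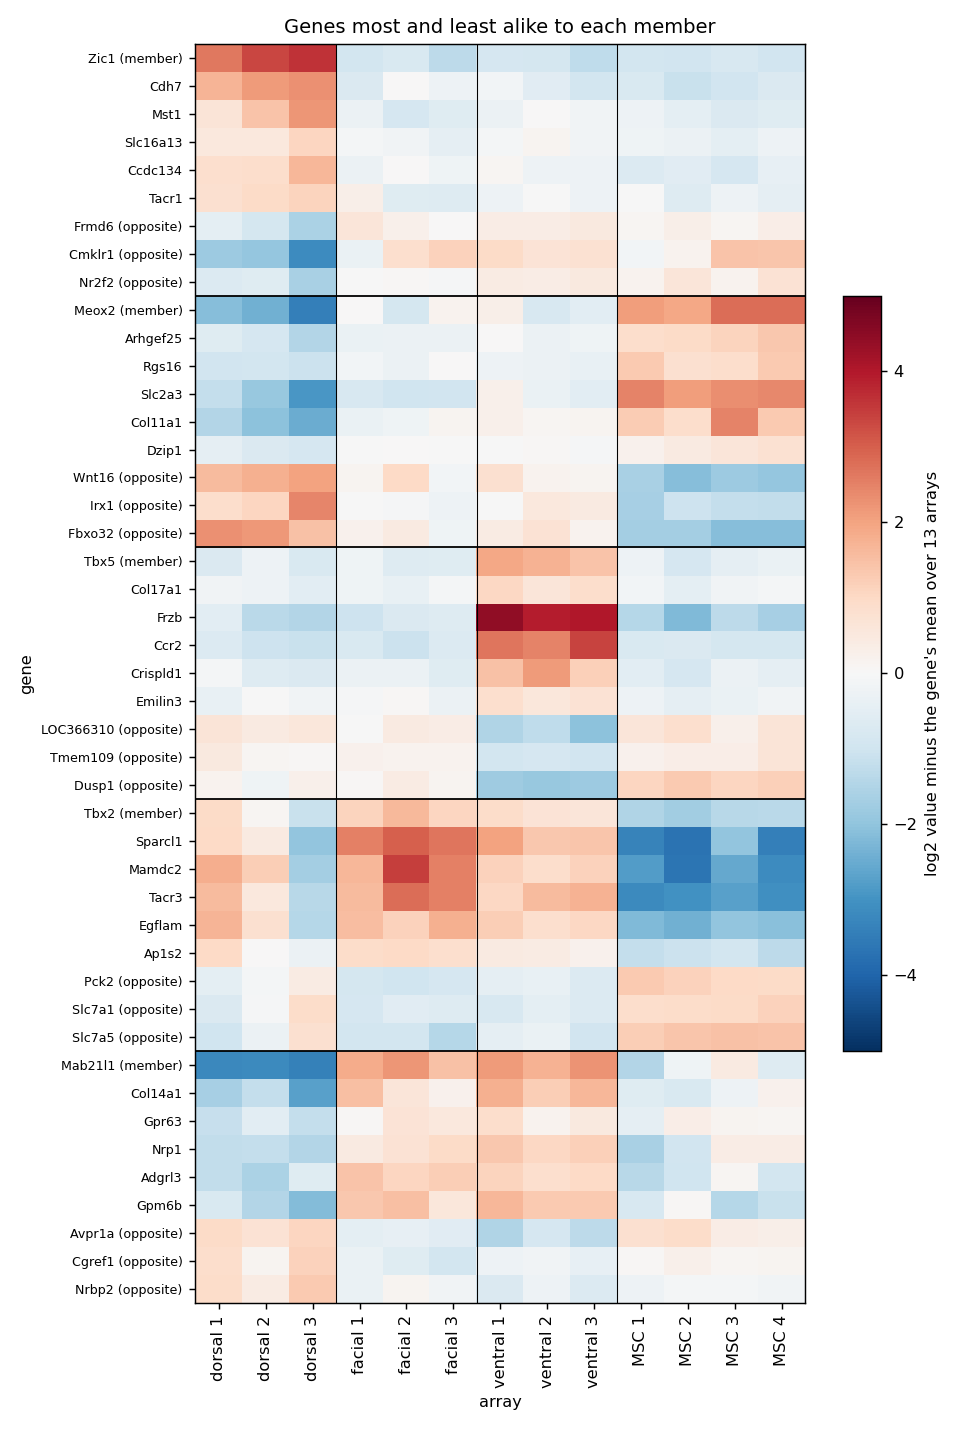
Colour shows the log2 expression value of a gene minus its mean over the 13 arrays, with arrays in columns by group and genes in rows. For each of the 5 genes, the 5 most alike and the 3 most opposite genes by Pearson's r follow it, so Frzb and Ccr2 repeat the ventral block of Tbx5 and Cdh7 the dorsal block of Zic1.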

How the data were processed

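The deposited table holds log2 values that the authors made with RMA (core gene summaries, Affymetrix Expression Console), per the submitters' processing notes, which also name limma without versions. RNA from 13 cultures was hybridised to Affymetrix Rat Gene 1.0 ST arrays. Arrays have no read depth, and their number limits the precision. Of 29215 probe sets, 15310 had 1 symbol, 323 several and 13582 none in the platform annotation, and symbols were updated through RefSeq by Entrez ID (15279) or accession (6), with 25 kept as given. Of 527 genes with several probe sets, the one with the highest mean was used, which left 14506 genes.

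The members and lists were chosen with earlier results of these data known. Using limma 3.58.1 (R 4.3.3), group means of the 13 arrays were fitted, with 8 contrasts, eBayes and Benjamini-Hochberg adjustment over all genes, called at 0.05. The fit was tested on simulated data. Members received means, SDs and standard errors only. The standard errors rest on a spread per gene that all 4 groups share and that eBayes moderates. Named genes were the members, their families and neighbours, up to 4 called genes a list and comparison with the largest difference, and the 5 most and 3 least correlated genes a member. The 19 lists hold 234 genes, 185 of them measured. Alternatives left out arrays, added a replicate block, renormalised or centred the arrays, averaged probe sets, changed the prior, added a fold limit or a filter on low values, and changed the correlation measure. Sequences are from RefSeq's table for GRCr8, which gave windows for Meox2, Tbx5 and Mab21l1.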

Additional observations from a re-analysis of the deposited data

Results flagged for a closer look

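In MSCs the gap between the highest or lowest array and the nearest other one, as a share of the range over the 4 arrays, was 1.0 for Zic4 and 0.864 for Zic5. Chance alone would set about 1 in 20 such groups apart, and 22 were examined. Zic4 was at 3.73 on MSC array 3 and at 3.62 on each of the other 3, all at background. Zic5 was at 5.55 on the same array and at 4.90 to 4.99 on the others.

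Mab21l1 differed from MSCs in opposite directions by region, by 2.32 in facial and 2.51 in ventral SKPs and by -2.79 in dorsal SKPs, on every array of each region. The difference between regions was not tested, because the gene was chosen on these values. Zic4 was above its MSC mean by 0.46 in dorsal SKPs and differed from it by -0.33 in facial and -0.12 in ventral SKPs, again on every array. The differences between these effects are those between the regions, -0.79 for facial minus dorsal (limma adjusted p = 0.0197) and 0.58 for dorsal minus ventral (adjusted p = 0.0352), whose calls 5 and 11 of 22 alternatives lost, with adjusted p up to 0.149 and 0.119.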

How the results depend on the processing

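No difference of the 5 genes that was described as apart between groups changed sign under any alternative run, and the cause of the shifts below was not tested. With dorsal array 3 and facial array 3 left out, an alternative chosen after seeing the data, the facial minus dorsal difference was -3.84 for Zic1 and 1.85 for Meox2, Tbx2 was 2.02 for dorsal minus MSC and -0.20 for dorsal minus ventral, and 99 genes were called between facial and dorsal SKPs and 212 between facial and trunk SKPs. Leaving out 1 array at a time, Tbx2 ranged from 0.99 to 2.02 for dorsal minus MSC, from 0.75 to 1.79 for facial minus dorsal and from -1.24 to -0.20 for dorsal minus ventral, each time with the extreme at 0.75, 2.02 or -0.20 set by dorsal array 3. Genes called then ranged from 94 to 258 between facial and dorsal, 390 to 1416 between facial and ventral, 327 to 937 between dorsal and ventral, and 149 to 524 between facial and trunk SKPs. The replicate numbers showed no pairing by the correlation of deviations, which was over 0.1 in 1 of 18 same-numbered pairs (range -0.122 to 0.199). Pairs with different numbers ranged from -0.275 to 0.294. With 3 or 4 arrays a group, this cannot tell whether same-numbered isolates shared an origin. With the replicate block, 106 genes were called between facial and dorsal, 566 between dorsal and ventral and 173 between facial and trunk SKPs. With a log2 difference of at least 1 as well, calls numbered 1262 for SKPs, 1109 for dorsal, 1337 for facial and 1388 for ventral SKPs against MSCs, 322 between facial and ventral, 283 between dorsal and ventral and 173 between facial and trunk SKPs. Of the 5 most alike genes, Spearman's rho kept 0 for Zic1, 2 for Meox2, 0 for Tbx5, 0 for Tbx2 and 3 for Mab21l1. The 4 group means kept 0, 0, 1, 1 and 0 in the same order, and without dorsal array 3 it was 3, 2, 2, 4 and 4. With the 25th percentile of all genes as background (3.79 to 3.84), Zic1 was above it in all 4 groups and only Meox2 in dorsal SKPs stayed below. The number of arrays, 3 or 4 a group, limits all of these values.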

Other observations

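The 4 MSC arrays had the widest spread of the groups for Mab21l1, at 5.82 to 7.76, and arrays 1 and 2 did not lie on 1 side of arrays 3 and 4. The 5 measured keratinocyte markers had mean values of 3.77 to 4.13 over the arrays, and none was called between SKPs and MSCs by limma. Of 6 Schwann cell and melanocyte markers measured, 2 were higher in SKPs than in MSCs, and of 9 skeletal muscle markers 1 was higher and 3 were lower.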
